A study of Mus musculus with 23 samples.

Results

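The genes described here are 9 endothelial markers and angiogenic receptors or ligands, Pecam1, Cdh5, Emcn, Vwf, Kdr, Flt1, Eng, Tek and Angpt2, chosen by gene name from a table of 56748 genes, and all 9 were in it. They were followed in 23 tumors grown under the skin of DBA/2J mice, 6 to 8 weeks old, from B16-F1 cells, a mouse melanoma line that was derived from the C57BL/6 strain and therefore from another strain than its host. Mice were treated by the intraperitoneal (IP) or the intratumoral (IT) route with pentoxifylline (PTX), a methylxanthine, at 60 mg/kg, with norcantharidin (NCTD), a demethylated form of cantharidin, at 3 mg/kg, or with both (MIX). CONTROL_IP received saline and CONTROL_IT received DMSO. CONTROL_IP, PTX_IP, NCTD_IP and MIX_IP held 2 tumors each, CONTROL_IT, NCTD_IT and MIX_IT held 4 each and PTX_IT held 3. By the study's methods the groups were matched for sex, while the labels give none. In the labels the batch of a tumor is its route, and therefore route, vehicle and batch cannot be told apart between the routes. Libraries read the 3′ end of messenger RNA in whole tumors, and in such bulk samples fewer endothelial cells and less RNA per endothelial cell cannot be told apart.

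Blood vessels are lined by endothelial cells, which hold together through VE-cadherin and PECAM1 and which a growing tumor recruits mainly through VEGF. VEGF-A signals through VEGFR2, while VEGFR1 binds it tightly and can act as a decoy, and the angiopoietins act through the receptor TIE2 to keep vessels quiet or to loosen them. B16 melanomas are a common model of tumors that recruit vessels from the host.

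Pecam1 (CD31, an adhesion molecule of endothelium, platelets and leukocytes), Cdh5 (VE-cadherin, of the endothelial junction), Emcn (endomucin, a sialoglycoprotein of capillary and venous endothelium) and Kdr (VEGFR2) were the 4 genes with the largest fold changes in NCTD_IT among the 8 members with enough reads to be tested. The promoters of 3 of these, Emcn, Kdr and Pecam1, are shown to give the sequence at their starts. Each is the stretch from 250 bases before to 50 bases from the start of the canonical transcript in GENCODE on build GRCm39, read on the strand of the gene. Capitals mark the letters GGAAG or, on the other strand, CTTCC, which hold the core bound by ETS factors. Other forms of that core were not searched.
Emcn: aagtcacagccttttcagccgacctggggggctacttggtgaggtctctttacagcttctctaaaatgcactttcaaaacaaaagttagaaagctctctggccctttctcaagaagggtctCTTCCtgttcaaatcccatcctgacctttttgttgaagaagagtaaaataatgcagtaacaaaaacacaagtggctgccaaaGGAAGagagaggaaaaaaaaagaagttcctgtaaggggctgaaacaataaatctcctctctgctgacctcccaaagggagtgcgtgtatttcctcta
Kdr: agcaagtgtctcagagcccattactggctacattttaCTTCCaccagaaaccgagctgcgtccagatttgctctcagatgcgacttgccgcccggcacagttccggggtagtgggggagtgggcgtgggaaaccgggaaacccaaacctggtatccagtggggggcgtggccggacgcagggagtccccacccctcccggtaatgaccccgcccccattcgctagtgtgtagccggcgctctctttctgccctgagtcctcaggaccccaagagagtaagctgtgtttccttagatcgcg
Pecam1: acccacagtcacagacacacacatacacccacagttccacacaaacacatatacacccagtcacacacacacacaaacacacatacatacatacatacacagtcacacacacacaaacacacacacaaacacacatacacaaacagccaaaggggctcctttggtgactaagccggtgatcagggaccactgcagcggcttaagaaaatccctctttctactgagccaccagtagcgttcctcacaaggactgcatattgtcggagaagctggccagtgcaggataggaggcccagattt
These windows lie at chr3:137046544-137046843 (+ strand) for Emcn, chr5:76139069-76139368 (- strand) for Kdr and chr11:106606408-106606707 (- strand) for Pecam1. The gene intervals in the table were 137046828 to 137137946 on chromosome 3 for Emcn, 76093487 to 76139118 on chromosome 5 for Kdr and 106545043 to 106641454 on chromosome 11 for Pecam1, so that the window of Pecam1 lies inside its interval. The ETS letters GGAAG or CTTCC were found in the windows of Emcn and Kdr and in those of Flt1, Tek, Vwf, Eng and Angpt2 as well. They were not found in that of Pecam1, and were found in 71.9% of 21770 promoters of the same length. The GATA letters GATAAG, or CTTATC on the other strand, were found in the promoters of Vwf and Angpt2 and in 7.15% of all. The hypoxia element ACGTG, or CACGT on the other strand, was found in Vwf and in 20.7% of all promoters.

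Reads counted per tumor ranged from 2861578 to 6702374, and 3 reads, the least taken here as a signal, correspond to 0.449 to 1.04 CPM (counts scaled to library size, here normalized by TMM). These floors cover counting error only. Of the 9 genes, 8 had at least 11 reads in every tumor and passed the filter on low counts, and Tek did not pass it within either route. Treated tumors were set against the control of the same route with edgeR (quasi-likelihood test) and Benjamini-Hochberg adjustment over all genes tested (12480 in the IT tumors and 12424 in the IP tumors), and a gene was called at an adjusted p below 0.05. The p-values measure the spread between these tumors, which the labels number individually. Replicate 23 of MIX_IT stood apart, with a summed level of fibroblast markers of 8792 CPM against at most 1929 CPM in the other tumors and the lowest summed level of melanoma markers (15320 CPM), and the comparison of MIX_IT with CONTROL_IT was also run without it, an alternative added for DESeq2 after the data were seen. Xist, the RNA of the inactive X chromosome, ranged from 5.19 to 13.6 CPM in NCTD_IT and from 1.28 to 11.6 CPM in PTX_IT, was at most 0.566 CPM in CONTROL_IT, was at 0 in MIX_IT, and among the IP tumors was found in CONTROL_IP replicate 2 alone (8.26 CPM). The sex of the hosts and the treatment therefore cannot be told apart between CONTROL_IT or MIX_IT and NCTD_IT or PTX_IT. CONTROL_IT and MIX_IT were alike at or under the floor of 3 reads.

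To ask whether vessel genes differed after local treatment, each IT group was set beside CONTROL_IT, and in NCTD_IT the junction and identity genes showed the largest differences. Emcn was at 5.94, 7.56, 7.89 and 8.24 CPM in CONTROL_IT and at 13.1, 15.6, 21.2 and 22.6 CPM in NCTD_IT. The 4 NCTD_IT tumors thus all lay above the 4 controls, with group means of 18.1 ± 4.52 and 7.41 ± 1.02 CPM (SD, n = 4 each), a 2.44-fold difference, on 21 to 130 reads per tumor over the study. Emcn rose in NCTD_IT (log2 fold change 1.29, SE 0.29, adjusted p = 0.0414, edgeR) and was the only member called there. The call was lost in 7 of the 8 fits that left out a tumor, with adjusted p between 0.0386 and 0.145, while the log2 fold change stayed between 1.17 and 1.42. In MIX_IT Emcn was at 12.3, 17.6, 20.1 and 28.6 CPM, again above every control, with a log2 fold change of 1.40 (SE 0.29) and an adjusted p of 0.121 in edgeR. Without replicate 23 that value was 1.16. In PTX_IT the 3 tumors were at 7.41, 7.71 and 9.76 CPM and overlapped the controls, with a log2 fold change of 0.16 (SE 0.32).

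Cdh5 and Pecam1 stood in the same order as Emcn without being called. Cdh5 was at 9.01, 12.5, 17.4 and 22.6 CPM in CONTROL_IT, at 24.6, 38.9, 41.4 and 45.5 CPM in NCTD_IT and at 22.8, 29.5, 34.9 and 102.9 CPM in MIX_IT. The ranges of CONTROL_IT and NCTD_IT did not overlap, and the lowest MIX_IT tumor lay just above the highest control. The log2 fold change of Cdh5 was 1.29 in NCTD_IT (SE 0.42, adjusted p = 0.0931, edgeR) and 1.62 in MIX_IT (SE 0.42, adjusted p = 0.158, edgeR). Without replicate 23 the value in MIX_IT was 0.91. PTX_IT lay between, at 19.8, 26.5 and 28.7 CPM, with a log2 fold change of 0.69 (SE 0.45, adjusted p = 0.814, edgeR).

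Pecam1 was at 3.61, 7.01, 8.57 and 11.3 CPM in CONTROL_IT, at 13.1, 19.7, 22.1 and 23.2 CPM in NCTD_IT and at 11.8, 12.0, 17.1 and 41.0 CPM in MIX_IT. All 8 of these treated tumors lay above all 4 controls, although 2 of the MIX_IT tumors did so by less than 1 CPM. Its log2 fold change was 1.36 in NCTD_IT (SE 0.43, adjusted p = 0.0887, edgeR) and 1.42 in MIX_IT (SE 0.43, adjusted p = 0.197, edgeR), and 0.83 in MIX_IT without replicate 23. In PTX_IT it was at 9.48, 10.0 and 18.1 CPM, overlapping the controls (log2 fold change 0.70, SE 0.46). Vwf, which encodes von Willebrand factor of endothelium and platelets, was at 3.28, 4.53, 5.26 and 7.21 CPM in CONTROL_IT and at 4.27, 4.84, 6.78 and 8.52 CPM in NCTD_IT, with overlapping ranges and a log2 fold change of 0.27 (SE 0.42). In PTX_IT its log2 fold change was -0.52 (SE 0.47) and in MIX_IT 0.44 (SE 0.42), or 0.60 without replicate 23, without a call.

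**Figure D1:**
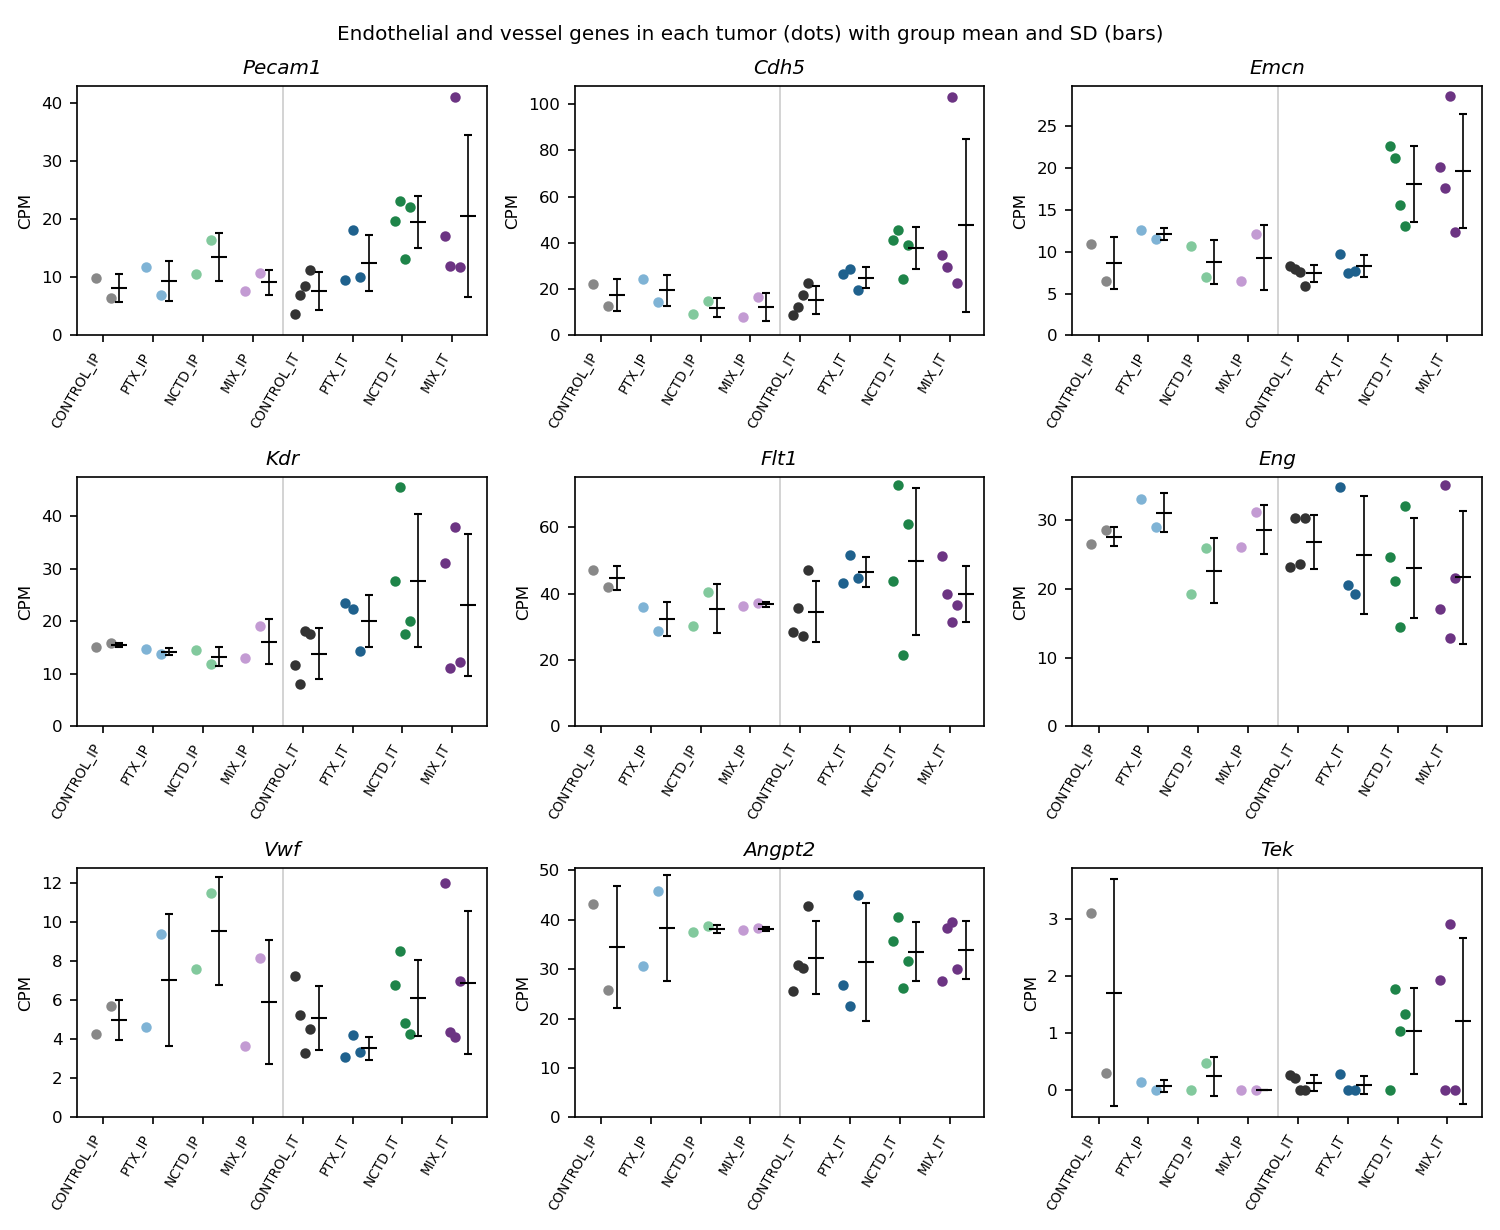
Levels of the 9 genes in each of the 23 tumors (dots, CPM on linear axes) by group, with the group mean and SD (bars), and a grey line between the IP and IT tumors. Emcn, Cdh5 and Pecam1 were higher in every NCTD_IT and MIX_IT tumor than in any CONTROL_IT tumor, and the ranges of Angpt2 and Eng in each IT treatment overlapped that of CONTROL_IT.

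Among the VEGF receptors, Kdr was at 8.11, 11.6, 17.5 and 18.1 CPM in CONTROL_IT and at 17.6, 20, 27.6 and 45.5 CPM in NCTD_IT. The lowest NCTD_IT tumor lay within the range of the controls. The log2 fold change of Kdr was 1.00 (SE 0.42, adjusted p = 0.176, edgeR), and 0.67 without NCTD_IT replicate 18. In MIX_IT the tumors fell at 11.1, 12.3, 31.0 and 37.9 CPM, with 2 among the controls and 2 above them (log2 fold change 0.73, SE 0.42, adjusted p = 0.479, edgeR), and without replicate 23 the value was 0.38. Flt1, which encodes VEGFR1, was at 27.2, 28.3, 35.7 and 47.0 CPM in CONTROL_IT and at 21.4, 43.6, 61.1 and 72.5 CPM in NCTD_IT, where the tumors lay on both sides of the controls. Its log2 fold change was 0.52 (SE 0.29) in NCTD_IT, 0.42 in PTX_IT and 0.20 in MIX_IT, with no call.

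Eng (endoglin, a co-receptor for TGF-β and BMP ligands) and Angpt2 (angiopoietin-2, a ligand of TIE2 whose effect depends on context) did not follow Emcn. Tek (TIE2 itself) had too few reads to be placed with either. Eng was at 23.2 to 30.3 CPM in CONTROL_IT, 14.5 to 32 CPM in NCTD_IT and 12.9 to 35.1 CPM in MIX_IT, with its lowest value in the MIX_IT tumor that was highest for Cdh5. Its log2 fold change was -0.21 (SE 0.31) in NCTD_IT and -0.31 (SE 0.30) in MIX_IT. Angpt2 was the least variable of the 8 tested genes, with a highest level 2.03 times its lowest over the 23 tumors and log2 fold changes of 0.05 in NCTD_IT and 0.06 in MIX_IT. Some reads given to Eng and Angpt2 may belong to genes on the opposite strand, since the strand setting of the counting is not given in the sources used here. Angpt2 lies within Mcph1 (1304 reads over the 23 tumors) and Eng overlaps Fpgs (246 reads). Tek had 59 reads in all 23 tumors together and fewer than 3 reads in 17 of them. Its highest levels were 3.11 CPM in CONTROL_IP replicate 1, 2.91 and 1.93 CPM in MIX_IT replicates 23 and 21, and 1.76, 1.33 and 1.04 CPM in NCTD_IT replicates 18, 20 and 19, and a difference between groups was not detectable at this depth.

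Counted together, 1 of the 8 tested members was called in NCTD_IT against CONTROL_IT, where 1.37% of all genes tested were called, and 4 (Emcn, Pecam1, Cdh5 and Kdr) had an unadjusted p below 0.05, as 21.6% of all genes did. The members' median log2 fold change was 0.76, beside 0.03 over all genes, and 7 of 8 were higher. In 3 of them the ranges did not overlap, with the treated tumors higher, as in 7.82% of all genes (8.95% lower). In MIX_IT edgeR called 0 members, as 0.0% of all genes were called, 3 (Emcn, Cdh5 and Pecam1) had an unadjusted p below 0.05 (13% of all genes), and DESeq2 called 2. Without replicate 23 edgeR called 0 members and the same 3 genes had an unadjusted p below 0.05. The median was 0.58 beside 0.01 over all genes (0.49 without replicate 23), and the same 3 genes had ranges that did not overlap, as did 4.93% of all genes in that direction (4.98% lower). In PTX_IT neither edgeR nor DESeq2 called a member (0.0% and 0.0959% of all genes), 0 had an unadjusted p below 0.05 (6.35% of all genes), and 0 had ranges that did not overlap (3.81% of all genes higher, 4.15% lower). The 3 comparisons share the same 4 controls.

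DESeq2 on the 2 groups compared, which follows the test named in the study's methods, called 3 members in NCTD_IT, Cdh5 (adjusted p = 0.0022, DESeq2), Emcn (adjusted p = 0.00393, DESeq2) and Pecam1 (adjusted p = 0.00735, DESeq2), where it called 10.6% of all genes. In MIX_IT it called Emcn (adjusted p = 0.0157, DESeq2) and Cdh5 (adjusted p = 0.0284, DESeq2), with 1.92% of all genes. Without MIX_IT replicate 23 DESeq2 called 0 members there and 2.87% of all genes, with an adjusted p of 0.114 for Cdh5 (DESeq2). None was given for Emcn, Pecam1, Vwf and Tek, which fell below its filter on mean counts and could not be called. The fold changes differed little between the tools, with 1.30 for Emcn in NCTD_IT by DESeq2 and 1.29 by edgeR.

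**Figure D2:**
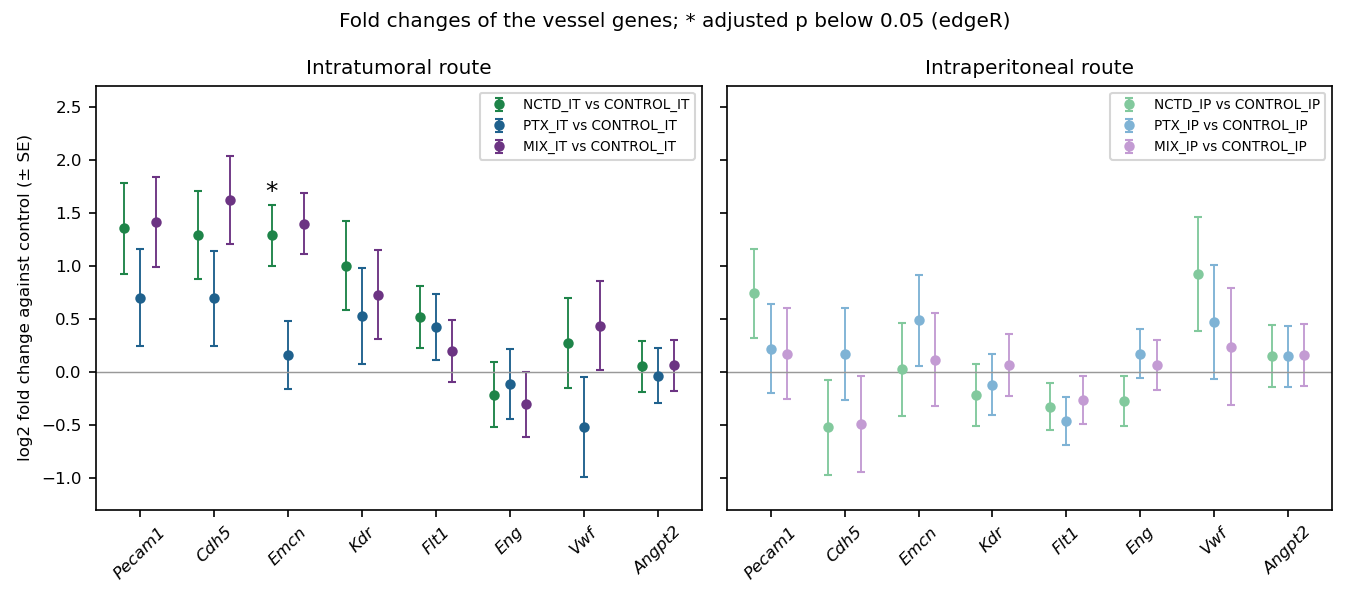
Log2 fold changes against the control of each route (points, with SE as bars, edgeR) for the 8 genes that passed the filter, intratumoral on the left and intraperitoneal on the right. The asterisk marks the call of Emcn in NCTD_IT, and the intratumoral values of Pecam1, Cdh5 and Emcn lie between 1.29 and 1.62 for NCTD_IT and MIX_IT.

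The IT treatments were also compared with each other, and the members were not called in any of these comparisons. MIX_IT differed in Xist from NCTD_IT and PTX_IT, so that host sex and treatment cannot be told apart between them. Emcn had the clearest difference, with every NCTD_IT and MIX_IT tumor above the 3 PTX_IT tumors. Its log2 fold change was 1.13 in NCTD_IT against PTX_IT (SE 0.32, adjusted p = 0.999, edgeR) and 1.24 in MIX_IT against PTX_IT (SE 0.32, adjusted p = 0.982, edgeR), or 0.998 without MIX_IT replicate 23. Emcn was the only member with an unadjusted p below 0.05 in either comparison, where 3.87% and 3.75% of all genes were below it and 0.0% were called. By DESeq2, too, 0 members were called (0.00851% and 0.0431% of all genes, the latter 0.036% without replicate 23). In NCTD_IT against PTX_IT, Vwf joined Emcn with ranges that did not overlap (2.3% of all genes higher, 2.13% lower), and in MIX_IT against PTX_IT Emcn alone had such ranges (2.12% higher, 2.1% lower). For Vwf this rested on little, since its 3 PTX_IT tumors were at 3.07, 3.34 and 4.19 CPM, the last of them just below the lowest NCTD_IT tumor.

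Adding PTX to NCTD by the IT route went with no called difference in these genes, in groups that also differed in Xist. Between MIX_IT and NCTD_IT the log2 fold change was 0.33 for Cdh5 (SE 0.40), 0.11 for Emcn (SE 0.28), 0.06 for Pecam1 (SE 0.41) and -0.27 for Kdr (SE 0.41), and all 8 ranges overlapped (ranges of 1.45% of all genes lay apart higher and 1.54% lower). Neither edgeR (0.00801% of all genes) nor DESeq2 (0.0663%, or 0.22% without MIX_IT replicate 23) called a member, and 0 members had an unadjusted p below 0.05 (6.02%). The values for Cdh5, Emcn and Pecam1 turned negative without MIX_IT replicate 23 (-0.39, -0.14 and -0.53).

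By the IP route the vessel genes showed no called difference from CONTROL_IP by edgeR, or by DESeq2 (which called 0.0793% of all genes in NCTD_IP, 0.0186% in PTX_IP and 0.138% in MIX_IP), with 2 tumors in each group. In MIX_IP DESeq2 gave no adjusted p to Pecam1, Tek, Vwf and Emcn, so that these could not be called there. Emcn was at 6.46 and 10.9 CPM in CONTROL_IP, 11.6 and 12.6 in PTX_IP, 6.92 and 10.6 in NCTD_IP and 6.52 and 12.1 in MIX_IP. The groups other than PTX_IP overlapped the controls, and the log2 fold changes were 0.49 in PTX_IP (SE 0.43), 0.03 in NCTD_IP (SE 0.44) and 0.12 in MIX_IP (SE 0.44). Cdh5 was at 12.6 and 22.3 CPM in CONTROL_IP, 14.6 and 24.3 in PTX_IP, 9.24 and 14.8 in NCTD_IP and 8.09 and 16.6 in MIX_IP, overlapping throughout, with log2 fold changes of -0.52 (SE 0.45) in NCTD_IP and -0.49 (SE 0.45) in MIX_IP. Flt1 was lower than both controls (42.1 and 47.2 CPM) in all 6 treated IP tumors, which ranged from 28.6 to 40.6 CPM. Its log2 fold change was -0.33 in NCTD_IP, -0.46 in PTX_IP (SE 0.22, adjusted p = 0.906, edgeR) and -0.27 in MIX_IP. The median over the 8 members was -0.10 in NCTD_IP, 0.17 in PTX_IP and 0.09 in MIX_IP, and edgeR put 0 members at an unadjusted p below 0.05 in each (3.59%, 5.3% and 2.94% of all genes, with 0.0% called in each). Ranges that did not overlap were found for 2 members higher and 3 lower in NCTD_IP (16.3% and 18% of all genes), 2 higher and 2 lower in PTX_IP (15.7% and 16.1%) and 0 higher and 1 lower in MIX_IP (17% and 18.9%). The 2 higher in NCTD_IP were Pecam1 (log2 fold change 0.74, SE 0.42) and Vwf (0.93, SE 0.54), and the 3 lower were Flt1, Eng and Kdr. Pecam1 was at 10.6 and 16.5 CPM there, against 6.46 and 9.90 CPM in CONTROL_IP. Vwf was at 7.56 and 11.5 CPM, against 4.27 and 5.71 CPM.

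Over the 2 routes the highest mean of Pecam1, Cdh5 and Emcn was in MIX_IT and the next in NCTD_IT, while Kdr and Flt1 were highest in NCTD_IT. The first place of MIX_IT rested on replicate 23, since without it the means were 13.7 CPM for Pecam1, 29.1 CPM for Cdh5 and 16.7 CPM for Emcn, against 19.5, 37.6 and 18.1 CPM in NCTD_IT. Neighbors in the order of group means had overlapping ranges in 60 of 63 pairs over the 9 genes. For Emcn the step from NCTD_IT (lowest tumor 13.1 CPM) to PTX_IP (highest tumor 12.6 CPM) was among the 3 that did not overlap. With the drug in the model, 0 of 8 members were called between the routes, where 0.398% of all 12557 genes were called, and Cdh5 alone had an unadjusted p below 0.05, as 14.2% of all genes did (0.87 higher in IT on the log2 scale, SE 0.32, adjusted p = 0.206, edgeR). DESeq2 also called 0 members between the routes, with 2.94% of all genes.

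The difference of a drug's effect between the routes was tested in a model of all 23 tumors, in which 13395 genes passed the filter. For NCTD the difference was 1.82 for Cdh5 (SE 0.72, adjusted p = 0.38, edgeR) and 1.27 for Emcn (SE 0.51, adjusted p = 0.389, edgeR) on the log2 scale, IT above IP. Without CONTROL_IP replicate 1, 1 of the 2 IP controls, these were 1.34 and 0.83. Pecam1 differed by only 0.625 (SE 0.69) and Vwf by -0.66 (SE 0.70). Of the 9 members, 7, Tek among them, were above 0 and 2 below for NCTD. Tek passed the filter of this model through its highest tumors, CONTROL_IP replicate 1 and MIX_IT replicate 23. The first of these enters all its route differences and the other that of MIX, so that no support is drawn from Tek. For MIX the difference was 2.13 for Cdh5 (SE 0.72, adjusted p = 0.585, edgeR), or 1.40 without MIX_IT replicate 23. For Emcn it was 1.30 (SE 0.51, adjusted p = 0.616, edgeR), or 0.86 without CONTROL_IP replicate 1. For PTX the differences were 0.53 for Cdh5 (SE 0.72) and -0.32 for Emcn (SE 0.52). Of the 9 members that model tested, 3 were at an unadjusted p below 0.05 for NCTD (10.8% of all genes), 3 for MIX (7.44%) and 0 for PTX (5.23%), the third being Tek, whose reads are too few to read from. For all 3 drugs edgeR called 0.0% of all genes. DESeq2 called 0 members, with 1.29% of all genes for NCTD (78 genes) and 0.00344% each for PTX and MIX. For NCTD it gave no adjusted p to Pecam1, Kdr, Tek, Vwf and Emcn, so that these could not be called.

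Levels of the members were also correlated with each other. Taken first were the 4 of the 8 tested genes with the largest fold changes in NCTD_IT, so that these values are a description of a chosen set. Over the 23 tumors, Spearman's rho between pairs of Pecam1, Cdh5, Kdr and Emcn ranged from 0.42 to 0.85 (6 pairs). Flt1 lay between, with rho of 0.45 with Pecam1, 0.50 with Cdh5, 0.44 with Kdr and 0.04 with Emcn. Between the 4 genes and Vwf, Eng or Angpt2 rho ranged from -0.29 to 0.23 (12 pairs). Among the 15 IT tumors the 6 pairs ranged from 0.51 to 0.94 and the 12 pairs from -0.38 to 0.37, and without MIX_IT replicate 23 from 0.41 to 0.93 and from -0.25 to 0.55. Among the 8 IP tumors the 6 pairs ranged from -0.19 to 0.74 and the 12 pairs from -0.31 to 0.67, and thus were not apart. These values describe tumors that share groups, routes and libraries. The mean standardized log2 CPM was taken over all 9 members, with Tek included since it passed the filter of the model of all 23 tumors. By this mean the 5 highest tumors were NCTD_IT replicate 18, MIX_IT replicates 23 and 21, and NCTD_IT replicates 20 and 17. The lowest was CONTROL_IT replicate 9. NCTD_IT replicate 19 ranked only 18 of 23, with the lowest Flt1 of all tumors (21.4 CPM) and an Emcn above every control.

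**Figure D3:**
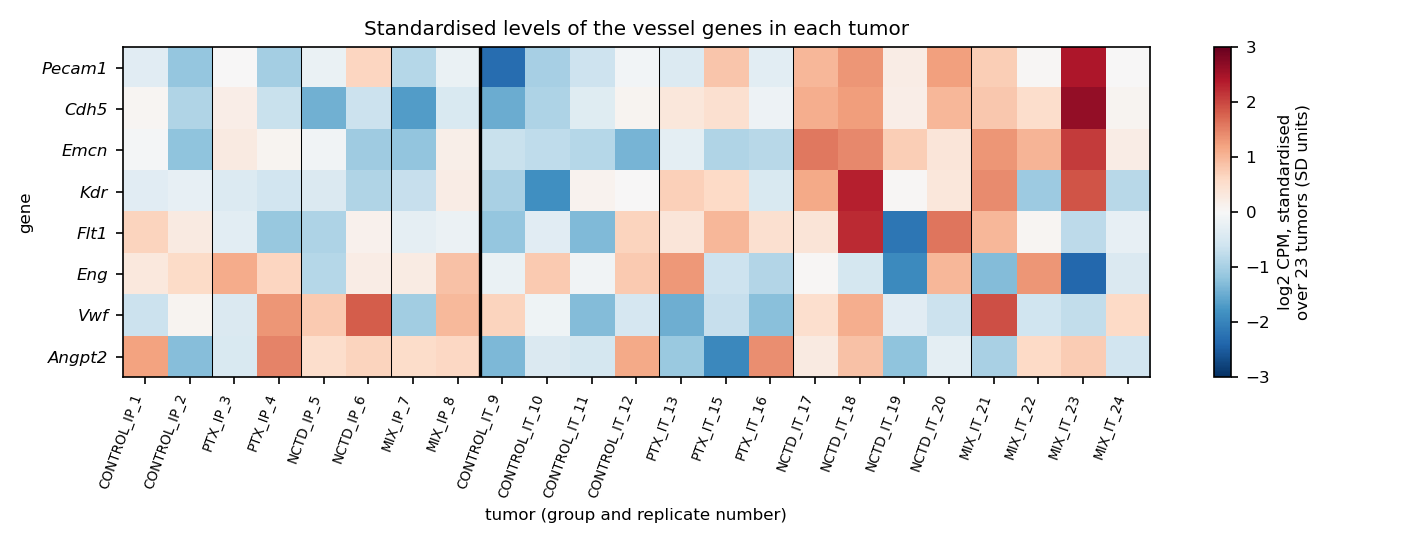
Log2 CPM of the 8 tested genes (rows) in each tumor (columns), standardized over the 23 tumors in SD units, red above and blue below the mean; a thick line parts the IP from the IT tumors. Pecam1, Cdh5, Emcn and Kdr are red together in most NCTD_IT and some MIX_IT columns, while Eng is bluest in MIX_IT replicate 23 (12.9 CPM).

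The 5 genes whose levels were most like that mean over the 23 tumors, among 13395 genes, were S1pr3 (a sphingosine-1-phosphate receptor; Spearman's rho 0.75), Tcim (0.75), Ythdf3 (a reader of m6A in RNA; 0.74), Ern1 (the stress sensor IRE1α; 0.74) and Nid1 (nidogen-1, of basement membranes; 0.72). S1pr3 averaged 2.44 CPM and Tcim 1.85 CPM, and both had tumors at or below the floor of 3 reads.

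Other genes of the vessel wall and its signals were taken from hand-written lists. Of 24 tested endothelial identity genes, 17 were higher in NCTD_IT (median log2 fold change 0.77), 16 in PTX_IT (0.40) and 18 in MIX_IT (0.67), beside medians over all genes of 0.03, 0.02 and 0.01. Without MIX_IT replicate 23 the value in MIX_IT was 0.44, with 16 higher. In this list 1 gene was called, S1pr1, a sphingosine-1-phosphate receptor that steadies endothelial junctions and is also found on lymphocytes. It rose in NCTD_IT, from 8.497 to 12.7 CPM in CONTROL_IT to 25.9 to 49.9 CPM (log2 fold change 1.76, SE 0.40, adjusted p = 0.0414, edgeR). In PTX_IT it was at 14.1 to 37.4 CPM (1.31, SE 0.42, adjusted p = 0.758, edgeR) and in MIX_IT at 15.99 to 61.9 CPM (1.62, SE 0.39, adjusted p = 0.135, edgeR, or 1.10 without replicate 23). Esm1 (endocan, known from VEGF-stimulated tip cells) had the lowest values of the list, -1.78 in NCTD_IT and -1.61 in MIX_IT (-1.24 without replicate 23), without a call. Sox13 averaged 0.393 CPM in CONTROL_IT, under the floor of 3 reads, and 4.34 CPM in NCTD_IT and 5.16 CPM in MIX_IT, and no fold is given for it. Cldn5, the claudin of endothelial tight junctions, did not pass the filter, with at most 1.76 CPM in any IT tumor.

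The VEGF list held 8 tested ligands and receptors, of which 5 were higher in NCTD_IT and 4 in MIX_IT with 0 called. Vegfa, the main ligand of Kdr, was at 61.2 to 103.0 CPM in CONTROL_IT, 40.8 to 141.3 CPM in NCTD_IT and 11.4 to 67.3 CPM in MIX_IT, with log2 fold changes of -0.28 (SE 0.51) and -0.90 (SE 0.51, adjusted p = 0.476, edgeR), the latter -0.58 without replicate 23. Nrp2, a neuropilin co-receptor that melanoma cells also express, was at 109.2 to 139.5 CPM in CONTROL_IT and at 197.1 to 272.5 CPM in NCTD_IT, above every control (0.97, SE 0.24, adjusted p = 0.0542, edgeR), with 0.79 in PTX_IT and 0.96 in MIX_IT. Nrp1 was at 0.68 in PTX_IT and 0.61 in MIX_IT, and Vegfb had a log2 fold change of -0.88 in NCTD_IT and -0.57 in MIX_IT (-0.36 without replicate 23). These went uncalled.

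In the angiopoietin and TIE list 0 of 5 tested genes were called in any IT comparison. Tie1 was at 0 to 1.42 CPM in CONTROL_IT, with a mean of 0.544 CPM under the floor, and at 0.771 to 5.48 CPM in PTX_IT and 2.19 to 7.77 CPM in MIX_IT. Ptprb, the phosphatase that restrains TIE2, had a log2 fold change of 1.65 in MIX_IT (SE 0.48, adjusted p = 0.185, edgeR), or 0.97 without replicate 23. Of the 8 tested genes of the endoglin and BMP9 list, 6 were higher in NCTD_IT and 5 in PTX_IT and MIX_IT, with 0 called. Id1 and Id3, targets of BMP signals in endothelium and other cells, had log2 fold changes of 1.78 and 1.33 in NCTD_IT, 1.56 and 0.99 in PTX_IT and 2.07 and 1.12 in MIX_IT (1.04 and 0.81 without replicate 23). Of 6 Notch genes, 5 were higher in NCTD_IT, led by Hes1 (1.13, SE 0.41, adjusted p = 0.127, edgeR), and 0 were called.

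Of 11 tested pericyte and smooth muscle genes, which mark the cells that wrap vessels, 9 were higher and 2 lower in NCTD_IT (median 0.94), 7 higher and 4 lower in PTX_IT (0.57) and 9 higher and 2 lower in MIX_IT (0.44), with 0 called. Without MIX_IT replicate 23, 5 were higher and 6 lower in MIX_IT, with a median of -0.17. Pdgfrb, the PDGF receptor of pericytes and fibroblasts, was at 2.63 to 8.204 CPM in CONTROL_IT, 11.04 to 18.4 in PTX_IT, 14.7 to 25.8 in NCTD_IT and 8.43 to 59.5 in MIX_IT. Every treated tumor was above every control, with log2 fold changes of 1.55, 1.92 and 2.23 (adjusted p = 0.785, 0.0726 and 0.156, edgeR), the last of them 1.17 without replicate 23. Rgs5, a marker of pericytes, was at 9.20 to 33.4 CPM in CONTROL_IT and 24.6 to 43.2 CPM in NCTD_IT, with overlapping ranges (1.04, SE 0.48, adjusted p = 0.224, edgeR), and had log2 fold changes of 0.98 in PTX_IT and 1.81 in MIX_IT (1.06 without replicate 23).

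**Figure D4:**
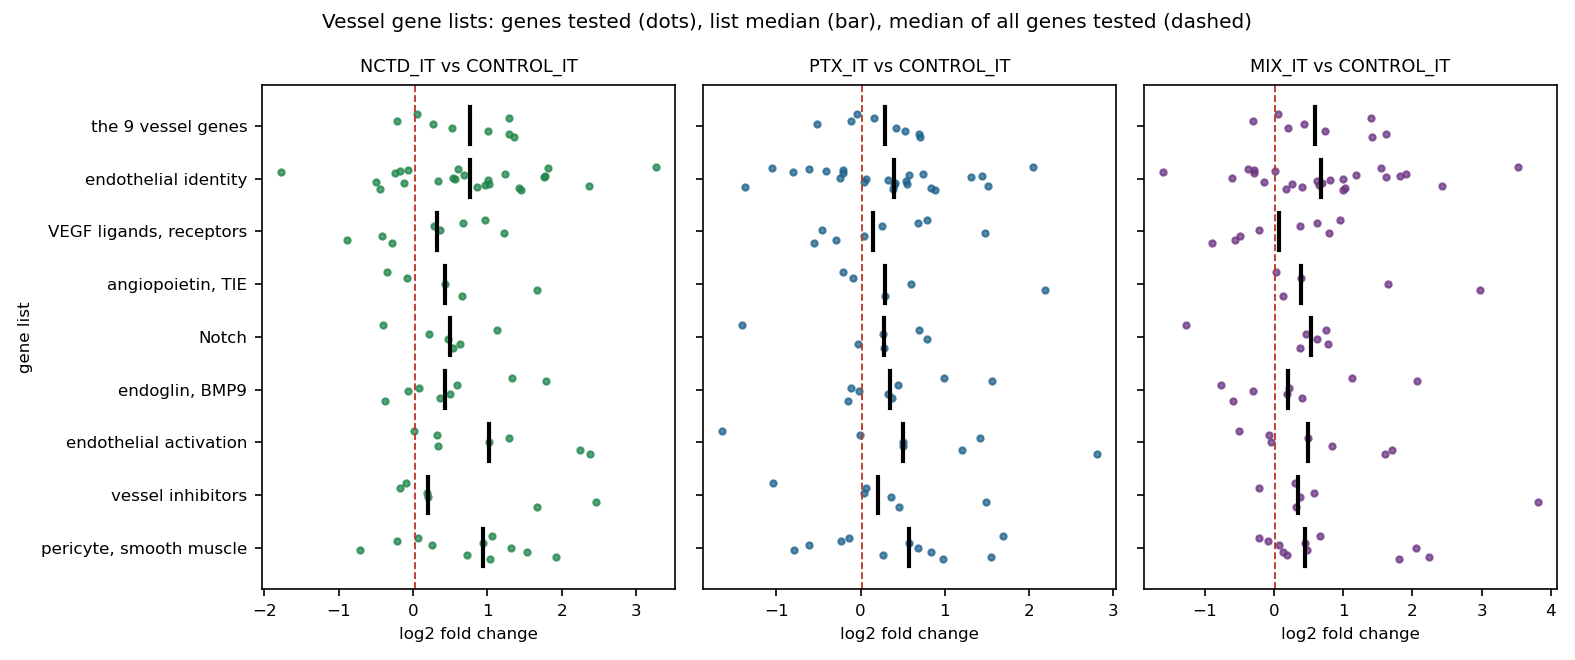
Log2 fold change of each tested gene (dots) in the 9 vessel genes and 8 related lists, with the list median (black bar) and the median of all genes tested (dashed line), for the 3 IT treatments against CONTROL_IT. The medians of endothelial identity genes were 0.77, 0.40 and 0.67 in NCTD_IT, PTX_IT and MIX_IT.

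Markers of other cells also differed between these tumors, and their part in the vessel genes was not tested. Summed fibroblast markers were 111.0 to 376.3 CPM in CONTROL_IT, 386.2 to 1728 CPM in NCTD_IT, 265.3 to 820.2 CPM in PTX_IT and 504.8 to 8792 CPM in MIX_IT, with all 6 tested markers higher and 0 called in each comparison. Summed leukocyte markers were 235.1 to 1406 CPM in CONTROL_IT and 728.5 to 2089 CPM in NCTD_IT, where 18 of 19 were higher and 2 were called (S100a8 and S100a9, of neutrophils and monocytes). In PTX_IT they were 228.8 to 1804 CPM, with 19 of 19 higher, and in MIX_IT 407.6 to 1134 CPM, with 14 of 19 higher, and 0 called in each. Ptprc (CD45), which marks the leukocytes that also carry PECAM1, was at 0.773 to 28.9 CPM in CONTROL_IT, 18.3 to 50.1 CPM in NCTD_IT and 5.99 to 16.5 CPM in MIX_IT, within the range of the controls in the latter. Summed melanoma markers were 26290 to 31950 CPM in CONTROL_IT, 19270 to 27150 CPM in NCTD_IT and 15320 to 28970 CPM in MIX_IT, and Mitf was called lower in NCTD_IT. All 4 tested hemoglobin markers were lower in NCTD_IT, PTX_IT and MIX_IT with 0 called (median log2 fold changes -1.77, -1.70 and -0.22). Without MIX_IT replicate 23, 3 were lower and 1 higher in MIX_IT. The 2 tested platelet markers had a median of 0.29 in NCTD_IT, 0.21 in PTX_IT and 0.31 in MIX_IT. Itga2b, which defines platelets and megakaryocytes, was at most 1.39 CPM in any IT tumor, while Pf4, which macrophages can also express, was at 37.1 to 67.9 CPM in CONTROL_IT and 46.8 to 91.9 CPM in NCTD_IT. Both tested skeletal muscle markers were higher in NCTD_IT (median 1.63), PTX_IT (1.19) and MIX_IT (0.90) with 0 called. No keratinocyte or adipocyte marker passed the filter in the IT tumors.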

How the data were processed

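RNA from 23 tumors was sequenced with a 3′ messenger RNA kit. The authors checked reads with FastQC, trimmed them with Trimmomatic, aligned them to GRCm39 with STAR 2.7.11b and deposited raw read counts per gene as STAR gave them. The Ensembl release, the strand setting and any use of molecular identifiers are not given in the sources used here. Tumors were grouped by their labels.

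Analysis used edgeR 4.0.16 and, as an alternative, DESeq2 1.42.0 (R 4.3.3, limma 3.58.1). Low counts were removed with filterByExpr (minimum count 10, minimum total 15), libraries were scaled by TMM, and the 4 groups of a route shared one quasi-likelihood model, with two-sided tests and Benjamini-Hochberg adjustment at 0.05. Routes were compared in models of all 23 tumors. CPM are counts relative to the filtered, TMM-scaled library. Log2 CPM used a prior count of 2. The scripts were tested on simulated data. A tumor's depth, 2861578 to 6702374 reads, sets the floor of 3 counts.

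Promoters were read from the GRCm39 genome at GENCODE starts. Some promoter sequence is not reported here. The table's annotation is of another release on the same build: 56017 of its 56748 genes were in the reference, 33753 with the same coordinates, and 1 of the 9 members. The members, the lists, the rule for named genes and the alternatives were chosen with earlier results of these data known. By that rule the text names all members, Vegfa, Cldn5, Rgs5 and Xist, called genes of the vessel lists, genes with the smallest p in a list and genes that open a marker list. Esm1, Itga2b, Mitf, S100a8, S100a9, Fpgs and Mcph1 were named after their values were seen. Alternatives were DESeq2, DESeq2 size factors, no filter, 2 groups or all tumors per model, and leaving out each tumor, with DESeq2 without MIX_IT replicate 23 added after the data were seen. Proteins, tumor volumes and docking were not analysed here.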

Additional observations from a re-analysis of the deposited data

Results flagged for a closer look

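Cdh5 in MIX_IT replicate 23 was at 102.9 CPM, while the other MIX_IT tumors were at 22.8, 29.5 and 34.9 CPM. The gap to the nearest tumor was 0.849 of the range of the group, above the critical value of 0.829 for 4 tumors. It was the only 1 of 27 groups of 4 tumors examined that passed, and chance alone flags about 1 in 20 such groups. The same tumor had the highest Pecam1 (41.0 CPM) and Emcn (28.6 CPM), the lowest Eng (12.9 CPM) and the highest summed fibroblast markers (8792 CPM) of the 23 tumors.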

How the results depend on the processing

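Counts of called members depended on the tool and the filter. In NCTD_IT against CONTROL_IT, 1 member was called, 3 with DESeq2 on the 2 groups, with DESeq2 on all IT tumors and with edgeR on the 2 groups, and 4 without the filter on low counts. In MIX_IT, 0 were called (0 of all genes), 2 with DESeq2 on the 2 groups (230 of all genes) and on all IT tumors (191), 0 with DESeq2 without replicate 23 (217, a setting added after the data were seen) and 3 without the filter (364). Without the filter 1 member was called between the routes (400 of all genes, 50 with it) and 1 each for the route difference of NCTD (283, 0 with it) and of MIX (139, 0 with it). DESeq2 size factors changed no such count. All genes called in NCTD_IT numbered 171 of 12480, 946 of 11263 with edgeR on the 2 groups, 777 of 13395 with all 23 tumors in a model and 1190 of 26878 without the filter. With DESeq2 they numbered 1378 on the 2 groups, of 12950 with an adjusted p, and 918 on all IT tumors, of 26850 with an unadjusted p. The causes were not tested.

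Leaving out 1 tumor at a time gave 0 to 1 called members in NCTD_IT and 0 to 191 called genes. Signs turned for values near 0 and for some larger ones, such as Vwf in PTX_IP (0.47 with all tumors). These were Angpt2 in NCTD_IT (-0.046 to 0.23), PTX_IT (-0.40 to 0.16), MIX_IT (-0.041 to 0.24), NCTD_IP (-0.18 to 0.56), PTX_IP (-0.18 to 0.56) and MIX_IP (-0.17 to 0.57), Eng in PTX_IT (-0.44 to 0.039) and MIX_IP (-0.054 to 0.19), Emcn in NCTD_IP (-0.31 to 0.44) and MIX_IP (-0.38 to 0.53), Pecam1 in PTX_IP (-0.22 to 0.55) and MIX_IP (-0.11 to 0.51), Cdh5 in PTX_IP (-0.26 to 0.63), Vwf in PTX_IP (-0.12 to 0.90) and MIX_IP (-0.43 to 0.71), Kdr in MIX_IP (-0.22 to 0.32), each against its control, and the route difference of PTX for Emcn (-0.75 to 0.014). So did Kdr in MIX_IT against PTX_IT (-0.16 to 0.43) and, in MIX_IT against NCTD_IT, Pecam1 (-0.53 to 0.25), Cdh5 (-0.39 to 0.56), Kdr (-0.63 to 0.069) and Emcn (-0.14 to 0.28). DESeq2 without MIX_IT replicate 23 turned the same signs: Angpt2 -0.022 in MIX_IT, Kdr -0.16 against PTX_IT, and Pecam1 -0.54, Cdh5 -0.39 and Emcn -0.14 against NCTD_IT. Signs were compared for all tested members against control and between the routes. Between IT treatments they were compared for Pecam1, Cdh5, Kdr and Emcn alone, and in the route differences for Cdh5 and Emcn alone. Among these, other settings reversed 0 fold changes. Outside them, DESeq2 without MIX_IT replicate 23 gave Eng 0.077 and Angpt2 -0.086 in MIX_IT against NCTD_IT. With all tumors edgeR gave -0.092 and 0.0075.

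No paired analysis was possible because no replicate number in the labels is shared between groups. The IP groups of 2 tumors and the 59 reads of Tek limit precision.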

Other observations

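A list of genes tied to the state of endothelium held adhesion molecules for leukocytes, and also Thbd, Procr, F3, Klf2 and Klf4. Of the adhesion molecules, Sele and Icam1 had only 4 and 16 reads over the 23 tumors. Genes of the list were higher in all 7 tested cases in NCTD_IT (median log2 fold change 1.02), in 5 of 7 in PTX_IT (0.51) and in 4 of 7 in MIX_IT (0.49), with 0 called in each. These values do not measure activation of endothelium. Vcam1, which binds leukocytes and is also made by stromal cells, had log2 fold changes of 2.38 in NCTD_IT (SE 0.81, adjusted p = 0.11, edgeR), 2.81 in PTX_IT (SE 0.85, adjusted p = 0.758, edgeR) and 1.61 in MIX_IT (SE 0.80, adjusted p = 0.411, edgeR). Klf2, a transcription factor that blood flow induces in endothelium, had 1.29 in NCTD_IT and 1.42 in PTX_IT.

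Of 6 tested inhibitors of vessel growth, 4 were higher and 2 lower in NCTD_IT, with a median log2 fold change of only 0.20. In PTX_IT and MIX_IT 5 were higher and 1 lower, with medians of 0.21 and 0.34, and 0 were called in each. Without MIX_IT replicate 23 the median in MIX_IT was 0.65 over 5 tested genes. Within this list Thbs1 and Thbs2, the thrombospondins, had log2 fold changes of 1.67 and 2.46 in NCTD_IT. Thbs2 had 3.82 in MIX_IT (SE 0.89, adjusted p = 0.122, edgeR), where the fibroblast markers had a median of 3.38. Without MIX_IT replicate 23, Thbs2 was at 1.88 and the fibroblast median at 2.05. Both tested lymphatic markers were higher in each IT treatment with 0 called, and Prox1, which defines lymphatic endothelium, was at 6.05 to 16.4 CPM in CONTROL_IT and 8.69 to 23.7 CPM in NCTD_IT, with overlapping ranges.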
